A study of Drosophila melanogaster with 3 samples.

Results

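Binding of GFP-tagged CG14710, a zinc finger protein, was examined at 9 Drosophila melanogaster genes of heterochromatin and of histone H3 lysine 9 (H3K9) methylation: HP1a, HP1b, HP1c, Su(var)3-9, egg, wde, G9a, Su(var)3-7 and Su(var)2-10. They were taken by name from the RefSeq annotation of the dm6 assembly, as 9 of its 13944 protein-coding genes, with the list drawn up when earlier results of these data were known. The gene of HP1a, locus tag CG8409, is a Su(var) gene too and is called by the RefSeq synonym HP1a, with its full symbol in the plots. The data came from chromatin immunoprecipitation with an antibody against GFP, followed by sequencing (ChIP-seq). Embryos of both sexes, 0 to 14 hours old, came from 1 transgenic line that stably expressed CG14710 with GFP fused to its C-terminus. There were 3 biological replicates of this 1 group, with chromatin in pieces of 200 to 800 bp, and no sample from embryos without the tagged protein was analysed here. Whole embryos mix all cell types, and a peak does not say which cells carried the protein. Each replicate had a list of 30000 peaks, and the authors gave a pooled list of 30000 and a list of 9194 peaks that passed their irreproducible discovery rate (IDR) filter. The signal of a peak is the value of the authors' peak caller, with a scale that is not stated, so replicates are compared here by rank within a list (rank 1 is the highest) or by percentile (100 is the highest). The sources used here do not give the read depth. A gene was called bound when an IDR summit, the highest point of a peak, lay within 500 bp of one of its transcription start sites (TSS). The IDR peaks near these genes had the same rank in the pooled list, down to rank 8955. Being bound was thus in practice a cut on pooled signal.

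Heterochromatin is the compact, mostly silent chromatin around centromeres and over repeats. Methyltransferases place methyl groups on H3K9, and proteins of the HP1 family read that mark through their chromodomain. In flies, many of these genes were found because their mutation relieves the silencing of a gene placed beside heterochromatin, which gave them the name Su(var), suppressor of variegation. HP1a encodes the main HP1 protein of heterochromatin, and HP1b and HP1c encode its paralogs. Su(var)3-9, egg (the SETDB1 homolog) and G9a encode H3K9 methyltransferases. The product of wde is the partner of the egg protein, Su(var)3-7 encodes a zinc finger protein that binds the HP1a protein, and Su(var)2-10 encodes a SUMO ligase that acts in transcriptional silencing.

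The 6 sequences shown here span 100 bp on each side of the strongest IDR promoter summit, and they carry the clearest contrasts among the genes: the highest peak, a pair of M1BP sequences, a cluster of DREF sequences, and promoters with neither. They were read from the RefSeq copy of dm6 in the direction of transcription of the named gene, with the summit at base 101. Capitals mark matches, on either strand, to the 8 sequences searched. These were GGTCACACT (M1BP, core promoter motif 1), TATCGATA (DREF), CAGGGCTG (ZIPIC), GGTATTTT (core promoter motif 6), CAGCTGTT (core promoter motif 5, an E-box), CGATA (BEAF-32, which also lies inside the DREF sequence), GAGAGAG (GAF) and CAGGTAG (Zelda).
G9a, chrX:245776-245976, plus strand: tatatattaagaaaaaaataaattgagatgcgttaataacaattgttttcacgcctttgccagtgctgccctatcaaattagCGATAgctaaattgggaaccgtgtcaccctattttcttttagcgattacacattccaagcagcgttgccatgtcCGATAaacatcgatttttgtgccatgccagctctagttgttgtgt
HP1c, chr3R:22745512-22745712, plus strand: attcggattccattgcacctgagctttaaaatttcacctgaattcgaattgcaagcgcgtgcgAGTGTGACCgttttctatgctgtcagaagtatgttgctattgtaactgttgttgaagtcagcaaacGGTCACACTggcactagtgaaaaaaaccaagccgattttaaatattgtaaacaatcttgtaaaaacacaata
Su(var)3-9, chr3R:15263402-15263602, minus strand: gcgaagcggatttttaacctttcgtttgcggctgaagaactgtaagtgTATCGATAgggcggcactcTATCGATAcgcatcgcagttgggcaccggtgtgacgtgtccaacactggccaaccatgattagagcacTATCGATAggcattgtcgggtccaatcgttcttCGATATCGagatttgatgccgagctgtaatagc
HP1b, chrX:9081085-9081285, plus strand: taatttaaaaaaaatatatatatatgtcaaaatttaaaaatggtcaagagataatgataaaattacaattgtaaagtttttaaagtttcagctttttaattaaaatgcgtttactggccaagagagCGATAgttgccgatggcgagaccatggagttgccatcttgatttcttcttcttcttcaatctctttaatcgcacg
HP1a, chr2L:8211165-8211365, minus strand: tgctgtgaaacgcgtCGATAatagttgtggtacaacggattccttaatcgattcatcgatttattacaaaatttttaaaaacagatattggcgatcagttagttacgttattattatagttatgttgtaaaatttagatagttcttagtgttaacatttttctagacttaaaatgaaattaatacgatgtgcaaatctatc
Su(var)3-7, chr3R:13264088-13264288, plus strand: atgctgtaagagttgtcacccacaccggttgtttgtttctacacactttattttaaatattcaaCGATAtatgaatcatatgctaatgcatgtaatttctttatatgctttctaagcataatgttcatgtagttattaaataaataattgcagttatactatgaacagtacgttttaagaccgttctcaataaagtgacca

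Of the 9 genes, 8 were bound (88.9%, 95% Wilson interval 56.5% to 98.0%), against 42.6% of all protein-coding genes. The exception was egg. Each of the 9 had a peak with its summit in the promoter window in all 3 replicate lists, against 47.7% of protein-coding genes. The signals of the 8 bound genes ran from 422 at Su(var)2-10 to 43441 at G9a, with a median of 856, against a median of 745 over all 5941 bound genes. The median over the 9 genes of the mean replicate percentile was 91.2, and over the 6656 protein-coding genes with a promoter peak in all 3 lists it was 87.1. By replicate, the median of the 9 genes was 90.9, 92.2 and 92.0, so it stayed within 2 percentile points while single genes ranged from 59.8 to 99.97. These counts have no test, since the genes were not a random draw and several share a peak with a neighbour. The interval covers counting error only.

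**Figure D1:**
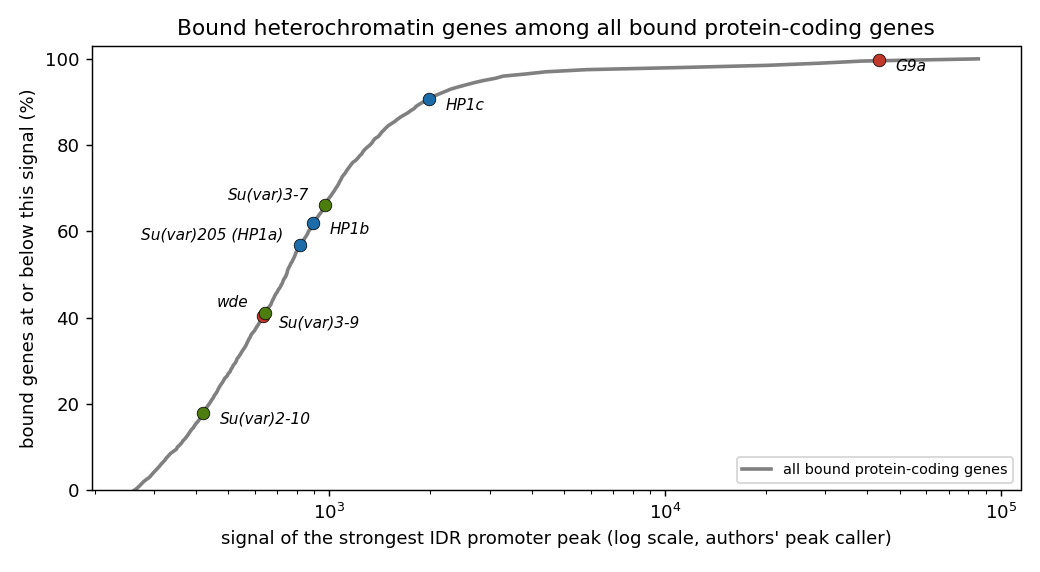
The grey line gives, for each signal of the strongest IDR promoter peak (x axis, log scale, value of the authors' peak caller), the percentage of all 5941 bound protein-coding genes at or below it, and the points are the 8 bound heterochromatin genes (blue HP1 readers, red methyltransferases, green partners). G9a lies near the top with a signal of 43441, HP1c has 1979, and the other 6 lie between 422 and 971.

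The 3 methyltransferase genes spanned the whole range. G9a, which encodes an H3K9 methyltransferase that acts mainly in euchromatin, carried one of the strongest peaks of the genome (X, 245978 to 254650, plus strand). Its promoter peak had signals of 15890, 12244 and 15361 in replicates 1, 2 and 3 and ranked 10, 11 and 15 of 30000. In the IDR list the peak had rank 12, spanned 245181 to 246535 and had its summit at -102 bp from the TSS. The summit was nearer to the TSS of the neighbouring gene CG3038, at -20 bp, so the peak cannot be given to G9a alone. Only 17 of the 5941 bound genes, or 0.286%, had a higher promoter signal. Within each replicate list the G9a signal was 23.1, 23.3 and 20.1 times that of HP1c, the second highest of the 9 genes (22.2 ± 1.81, SD, n = 3). The 3 replicate summits lay within 3 bp of each other, the smallest spread among the 9 genes.

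Su(var)3-9, the methyltransferase gene of pericentric heterochromatin (3R, 15259864 to 15263458, minus strand), had a middling peak. Its signals of 235, 176 and 224 gave ranks of 3708, 3484 and 4465, and its IDR signal of 633 was exceeded at 59.7% of bound genes. The IDR summit lay at -44 bp, and the replicate summits fell within 22 bp. The gene shares its TSS with eIF2gamma, which encodes a subunit of a translation initiation factor, so the peak cannot be given to one of them.

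The weakest promoter peak was at egg (2R, 24775534 to 24779901, minus strand). It was listed in each replicate, with signals of 74.8, 69.9 and 112 and ranks of 12061, 9438 and 8623, and its pooled summit lay at -20 bp. The pooled signal of 260 put it at rank 9265, which is 71 ranks below the last IDR peak. The lowest IDR signal was 263, so egg missed the list with 99.0% of that value. Of its 3 replicate peaks, only that of replicate 3 was among the 9194 strongest of its list.

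The 3 HP1 reader genes were all bound, and HP1c stood above the other two. HP1c (3R, 22745620 to 22746605, plus strand) had signals of 687, 526 and 766 and ranks of 536, 391 and 648. Its IDR signal of 1979 was exceeded at 9.24% of bound genes, and its summit lay at -8 bp from the TSS. HP1b (X, 9081063 to 9082746, plus strand) had signals of 349, 177 and 375 and ranks of 2008, 3460 and 2267. HP1a (2L, 8209626 to 8211122, minus strand), had signals of 308, 249 and 275 and ranks of 2480, 1970 and 3468. The replicate ranks of HP1b and HP1a overlapped, and every rank of HP1c was ahead of every rank of both. The IDR signal was 895 at HP1b and 817 at HP1a, with 38.1% and 43.2% of bound genes above them. HP1c also had a second, weaker summit 187 to 196 bp into the gene in all 3 replicate lists, at ranks of 19965, 6869 and 11947, which was in the pooled list but not in the IDR list.

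Among the partners, Su(var)3-7 (3R, 13264364 to 13270038, plus strand) had signals of 290, 226 and 445 and ranks of 2740, 2352 and 1744. Its IDR signal was 971 and its IDR summit lay at -176 bp. The replicate 2 summit was at -105 bp and the other two were at -181 and -176 bp, a spread of 76 bp. Su(var)2-10 (2R, 9116122 to 9122000, plus strand) was the weakest bound gene, with signals of 130, 128 and 157 and ranks of 7459, 5247 and 6439. It has 2 TSSs, and 2 IDR summits lay in their windows, one of signal 422 at 90 bp from the upstream TSS and one of signal 288 at -193 bp from the downstream TSS. Its IDR signal was exceeded at 82.1% of bound genes.

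The gene wde (2R, 10800420 to 10808938, minus strand) had its promoter peak upstream and a stronger one inside the gene. The IDR summit in the promoter window lay at -375 bp with a signal of 643, while a summit 522 bp downstream of the first TSS, in an intron, had a signal of 1925 and rank 541. That inner peak ranked 503, 704 and 589 in the replicates, with signals of 709, 404 and 806, so it was close in level to the HP1c promoter. Its replicate summits lay at 508, 492 and 506 bp, just outside the 500 bp window in replicates 1 and 3 and just inside it in replicate 2. For this reason the promoter value of wde in replicate 2 came from the inner peak, and its ranks of 5447, 704 and 2388 were the most uneven among the 9 genes. Taken from the highest replicate peak that covers the upstream IDR summit, the percentiles of wde were 81.8, 88.2 and 92.0.

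**Figure D2:**
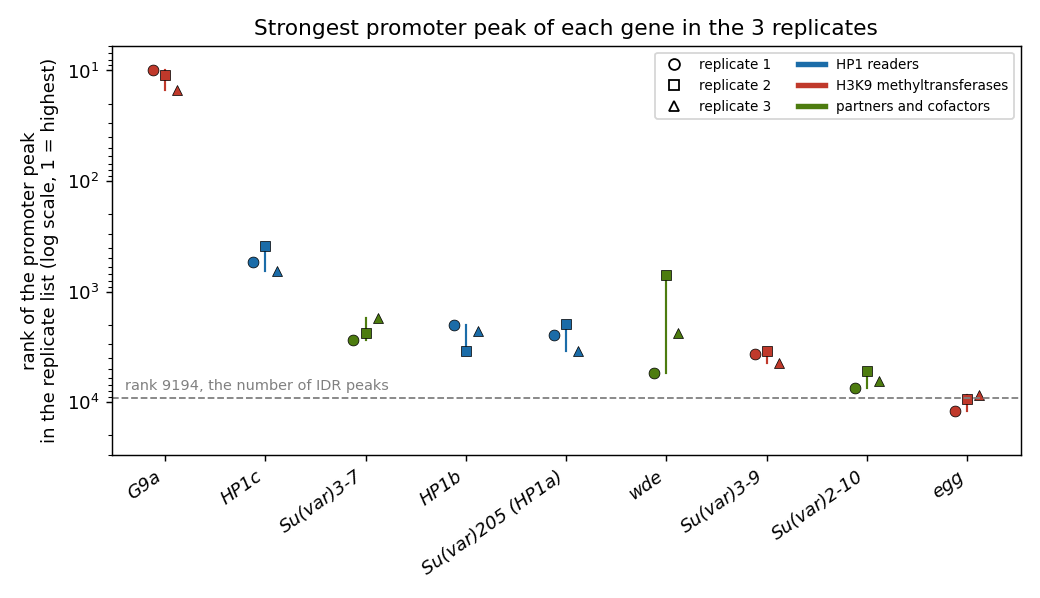
Rank of the strongest promoter peak (y axis, log scale, 1 is the highest of 30000) for each gene in replicates 1 (circle), 2 (square) and 3 (triangle), with a line over the range of the replicates and a dashed line at rank 9194. G9a ranks 10, 11 and 15, HP1c 391 to 648, and egg lies at 8623 to 12061, across the dashed line.

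In order of the mean replicate percentile, the genes were G9a (99.96 ± 0.00882), HP1c (98.3 ± 0.43), Su(var)3-7 (92.4 ± 1.67), HP1b (91.4 ± 2.58), HP1a (91.2 ± 2.54), wde (90.5 ± 8.02), Su(var)3-9 (87.1 ± 1.71), Su(var)2-10 (78.7 ± 3.69) and egg (66.5 ± 5.99), each an SD over 3 replicates. The replicate ranges of G9a and HP1c did not overlap, nor did those of HP1c and Su(var)3-7. The ranges of Su(var)3-7, HP1b, HP1a and wde all overlapped, so the order of these 4 is not separated by the replicates. Su(var)3-9, at 85.1 to 88.4, lay below every replicate of Su(var)3-7, HP1b and HP1a and overlapped only with wde, whose range was the widest of the 9 genes. The gap to HP1b and HP1a was narrow: the best rank of Su(var)3-9 was 3484, and the worst ranks of HP1b and HP1a were 3460 and 3468. The wde range mixes different peaks, since its replicate 2 value is that of the inner peak. For the upstream peak alone, wde ran from 81.8 to 92.0 with a mean of 87.3. The ranges of Su(var)3-9 and Su(var)2-10, and those of Su(var)2-10 and egg, did not overlap. An exact permutation test of 3 replicates against 3 cannot give a two-sided p below 0.1, so none was made.

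Most of these peaks also lay near the TSS of a second gene, transcribed away from the named one (divergent). For 7 of the 8 bound genes the strongest IDR summit was also within 500 bp of the TSS of another protein-coding gene, and in all 7 cases that gene, or 1 of 2 such genes at Su(var)3-9, was divergent. Over all bound genes the share with a second protein-coding gene at the summit, in any orientation, was 58.4%. A shared summit was thus common among bound genes in general. The share with a divergent gene was not counted over all bound genes, so the divergent arrangement has no background here. The 95% Wilson interval for 7 of 8 was 52.9% to 97.8%, which covers counting error only and is not a test. Su(var)2-10 was the exception. At egg, the pooled and replicate 1 summits had no other TSS within 500 bp, while those of replicates 2 and 3 had that of Lcp9. The summit was nearer to the other gene at G9a, HP1a, Su(var)3-7 and wde. At G9a the summit lay -20 bp from the CG3038 TSS, which is 122 bp from that of G9a, and CG3038 therefore has the same promoter value. At HP1a the summit lay -82 bp from the TSS of Ssb-c31a, at Su(var)3-7 it lay -127 bp from that of Ravus, and at wde it lay -84 bp from a TSS of CG12935. The summit was nearer to the named gene at HP1c, whose TSS is 39 bp from that of vret, a gene of the piRNA pathway, and at HP1b. HP1b has 2 TSSs, and its summit lay 122 bp into the gene, in an untranslated exon, at -69 bp from the downstream TSS and -128 bp from that of CG7246. The HP1b replicate summits lay within 19 bp of each other, and the map of summits shows them on both sides of 0 because each is placed from the nearer TSS. At Su(var)3-9 the summit lay -44 bp from its TSS and -50 bp from that of Set, the gene of a histone chaperone, and both TSSs were 94 bp apart. Of the 8 strongest summits, 4 were within 100 bp of a TSS of the named gene, against 44.1% of bound genes, so the distance to the TSS was near the background.

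**Figure D3:**
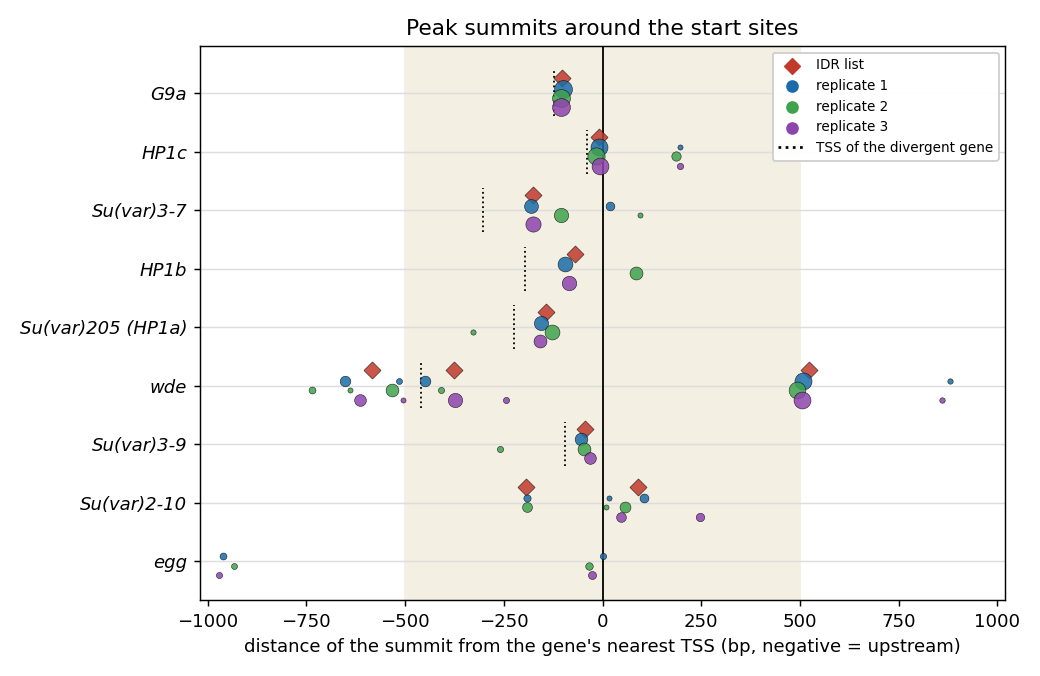
Summits within 1000 bp of the nearest TSS of each gene (x axis, in bp, negative is upstream) in the IDR list (red diamonds) and in replicates 1, 2 and 3 (blue, green and purple circles, larger for a higher percentile), with the 500 bp window shaded, the TSS as a solid line and the TSS of the divergent gene as a dotted line. At G9a the replicate summits lie within 3 bp of each other, while at wde the strongest replicate summits lie at 492 to 508 bp, at the edge of the window.

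The sequences at the summits differed between the genes. Among the 6 sequences printed above, HP1c was the only one with the M1BP sequence: it had 2 copies, on opposite strands, starting at -37 and 29 bp from the summit, and the replicate summits fell between them. Of all IDR summits, 2.55% had this sequence within 50 bp and 8 of 9194 had 2 or more copies. Of the 4211 different summits of bound genes, which are all at promoters, 4.35% had it and 7 had 2 or more copies. Su(var)3-9 had 3 copies of the DREF sequence, starting at -52, -33 and 35 bp from the summit. Of all IDR windows of 201 bp, 3 of 9194 had 3 or more copies, and 4.38% of summits had at least 1 within 50 bp. For the summits of bound genes these values were 3 of 4211 and 8.22%.

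The remaining genes carried mainly the shortest sequence searched. G9a had the 5 letters CGATA at -18 bp from the summit and again at 56 bp, and none of the 7 longer sequences within 100 bp. HP1b and Su(var)3-7 each had CGATA once within 50 bp, and so did wde, whereas HP1a had it at -85 bp only. This short sequence was found within 50 bp of 21.7% of all IDR summits, of 31.6% of the summits of bound genes and of 23.5% of protein-coding TSSs. In all, 6 of the 8 bound genes had at least 1 of the 8 sequences within 50 bp, against 40.8% of the 4211 different summits of bound genes. With the summits of replicates 1, 2 and 3 in place of the IDR summits the count was 4, 4 and 7. For wde the replicate 2 summit is that of the inner peak, and no match was found there. Within 100 bp of the IDR summit all 8 bound genes had at least 1 of the sequences, against 62.1% of the summits of bound genes. The M1BP pair at HP1c and at least 2 DREF copies at Su(var)3-9 were found with the summits of each replicate. A match describes the letters present and was not tested as a site of binding.

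Inside the genes, IDR summits away from the promoters were about as common as over all protein-coding genes. Only wde had IDR summits in its body outside the windows of its own TSSs. That is 1 of 9 genes (11.1%, Wilson interval 1.99% to 43.5%), near the 9.84% of all protein-coding genes. Besides the intron summit, wde had one in a coding exon, at 1089 bp from its second TSS, with a signal of 271 and a rank of 8955, near the end of the IDR list. Of the 3864 IDR summits outside 500 bp of every TSS, 18 lay in a coding exon, and this was one of them. The replicate peaks there ranked 8352, 7224 and 10533. In the pooled list G9a also had summits in its body. The highest lay 7366 bp from the TSS in the untranslated part of an exon, with a signal of 211 and a rank of 10800, and the replicates had peaks there at ranks of 14277, 7273 and 12021. Against the promoter signal of 43441, the body of G9a thus held no summit above 211 in the pooled list. HP1a, HP1b, egg and Su(var)2-10 each had a single summit in the body in 1 replicate list, and HP1c, Su(var)3-9 and Su(var)3-7 had none in any list. The one at HP1b lay within 500 bp of the APC4 TSS, and in the other lists the summit there fell past the gene's end.

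**Figure D4:**
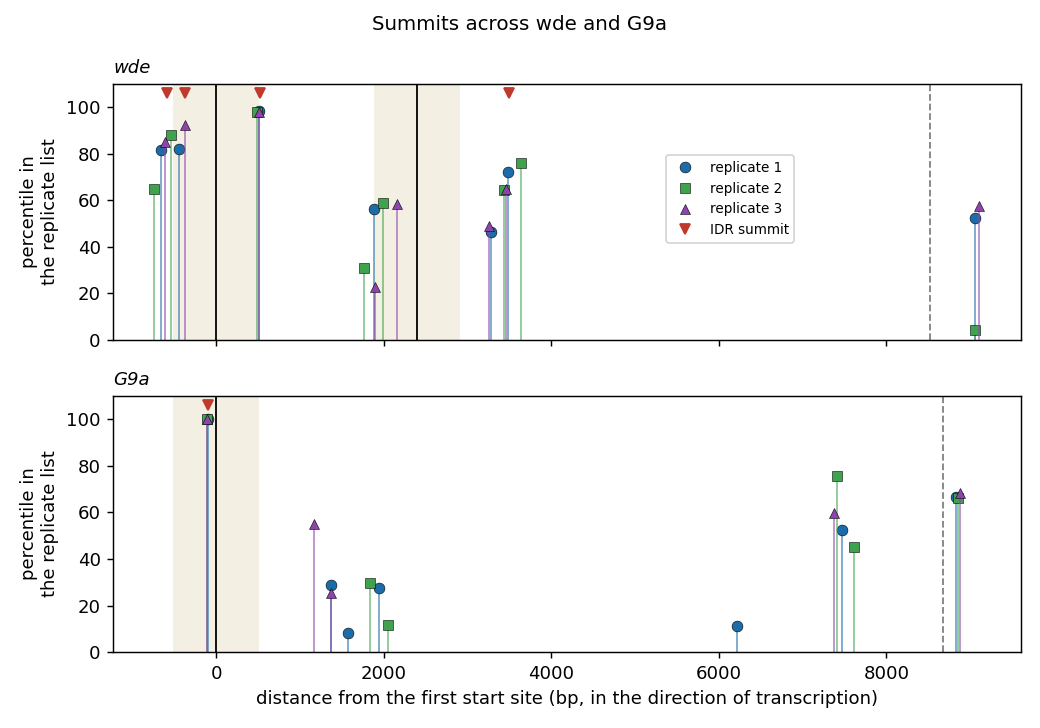
Summits of wde and G9a in the 3 replicates by their distance from the first TSS (x axis, bp) and their percentile in the replicate list (y axis), with IDR summits as red triangles, TSSs as solid lines with their 500 bp windows shaded, and the gene's end as a dashed line. In wde the summits 492 to 508 bp into the gene are the highest, while in G9a the promoter summit stands above 99.9 and no summit in the body is above 75.8.

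Other genes of heterochromatin were mostly bound as well, at lower levels than G9a. Of 35 further genes named for heterochromatin, its readers, erasers and partners or for nuclear piRNA silencing, 30 were bound (85.7%, Wilson interval 70.6% to 93.7%), against 42.6% of protein-coding genes. Their signals ran from 311 to 1656, so none reached HP1c or G9a. The median was 648, below the 745 over all 5941 bound protein-coding genes. The 6 highest were Sirt1, a deacetylase gene (1656), HP6 (1502), HP4 (1364), the histone demethylase gene Kdm4B (1136), E(var)3-9 (1066) and the chromatin remodeler gene XNP (1045). The 5 that were not bound were rhi, HP1e, mael, ova and Su(var)2-HP2. The germline HP1 gene rhi, whose product marks piRNA clusters, had a promoter peak in replicate 3 only, at rank 15348, and HP1e, an HP1 gene of the male germline, had none in any list. The piRNA pathway gene mael had weak peaks in all 3 lists, at ranks of 13831, 12840 and 10430, ova had one in replicates 1 and 2, at ranks of 16103 and 13745, and Su(var)2-HP2, the gene of an HP1a partner, had none. A site missing from a list is only not among its 30000 peaks.

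By the distance between their percentiles in the 3 replicates, the genes most like G9a were CG3038, at a distance of 0 because it has the same peak, and RhoGAP92B and Surf6, which had ranks of 14, 10 and 11 (distance 0.0191 percentile points). Those most like egg were Hk (2.37), CG7386 (3.26) and RhoGAP18B (3.58).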

How the data were processed

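Per the text files deposited with the data, the authors called peaks for each replicate from its dm6 alignments and 1 control file, called a pooled list from all 3 replicates, and derived the IDR list from the 4. No source used here names the aligner, the peak caller or the threshold of the IDR filter. The signal of each peak and the offset of its summit were computed by the authors before they deposited the lists, and the signal was used only within a list. All 9194 IDR peaks were peaks of the pooled list, and no peak ended past its chromosome arm in the RefSeq copy of the assembly, which gave 17796 genes and 23247 TSS positions on 7 arms.

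From these lists, summits were set against the windows of 500 bp on each side of each TSS and against gene bodies. The strongest summit in a window gave a gene's value, and its rank and percentile were taken within each list of 30000. Motifs were exact matches on both strands within 50 bp of a summit. No test was made on the 9 genes: there was 1 group, and the genes, the list of 35 others and the sequences searched were chosen with earlier results of these data known. Named were the 9 genes, every gene with a TSS at their summits, the 6 highest and all unbound genes of the further list, and the 3 genes with the nearest percentiles to the highest and the lowest of the 9. The procedures were tested on simulated data with planted peaks and motifs. Intervals are 95% Wilson intervals. Alternatives were TSS windows of 250 and 1000 bp, any overlap of the interval, the stronger 50% of IDR peaks, the pooled list, each replicate left out, the strongest 9194 peaks of each replicate, the highest replicate peak over the summit, and motif windows of 100 bp or around replicate summits. Tables were made with pandas 2.3.3 and numpy 2.4.6 in Python 3.11.15, intervals with scipy 1.17.1 and plots with matplotlib 3.10.9.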

Additional observations from a re-analysis of the deposited data

How the results depend on the processing

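The count of bound genes among the 9 was 7 with a TSS window of 250 bp (wde and egg missing), 7 in the stronger 50% of IDR peaks (Su(var)2-10 and egg missing), 9 in the pooled list, and 8 with the other window, with any overlap and without each replicate, where egg was the one missing. Without a replicate, an IDR summit had to lie in one of the 9194 strongest peaks of both others, but the IDR list itself was made from all 3. The count of genes with a summit in the body was 2 in the pooled list (wde and G9a) and 1 otherwise. The median percentile of the 9 genes ran from 90.1 to 90.9 when a replicate was left out, lowest without replicate 2. A promoter peak in all 3 lists was found at 8 genes with the window of 250 bp (wde missing) and at 8 among the strongest 9194 peaks of each list (egg missing). The further genes numbered 22 in the stronger 50% of IDR peaks and 27 to 32 otherwise, and the share of protein-coding genes that were bound ran from 29.0% to 55.1%. Signal has no stated scale and depth is unknown, so neither limits nor intervals could be set on the level of a peak.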

Other observations

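Some of the peaks near these genes lay at the promoters of neighbours. A peak of signal 2628 and rank 301 lay 184 bp past the end of Su(var)2-10, at the promoter of the glutathione transferase gene GstE13, and was higher than any promoter peak of the 9 genes but that of G9a. The IDR peak at the end of HP1b, with a signal of 568, lay at the promoter of APC4, which encodes a subunit of the anaphase-promoting complex. The one past the end of egg, with a signal of 366, lay at the promoter of the endocytosis gene Eps-15 and had a higher pooled rank, 7022, than the egg promoter itself.

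The G9a summit lacked the sequences most common at the other strongest peaks, and many of those peaks lacked them too. The 10 most frequent sequences of 8 letters within 50 bp of the other 99 of the 100 strongest IDR peaks, a choice made after seeing the data, were led by ACACACTG (18 of 99 peaks, against 0.473% of the 9094 weaker IDR peaks) and ACACTGGC (18 of 99, against 1.01%). At least 1 of the 10 lay at 52.5% of these 99 peaks and at 6.86% of the weaker ones. The G9a window held 0 of the 10, HP1c held 5, Su(var)3-9 held 1, and the other 5 bound genes held 0. The 5 at HP1c overlap one another, on either strand, in 1 stretch that starts with the M1BP copy at 29 bp from the summit. They are thus not 5 separate matches, and they add little to the M1BP pair described above.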
